A study of Homo sapiens with 7 samples.

Results

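The 10 genes described here belong to the oxygen response: HIF1A, the prolyl hydroxylases EGLN1 and EGLN3, the collagen prolyl hydroxylase subunits P4HA1 and P4HA2, the mitophagy receptors BNIP3 and BNIP3L, the secreted factors VEGFA and ADM, and the stress protein gene NDRG1. They were taken by symbol from 33694 gene rows, and all 10 had enough counts to be tested. The cells were HK-2, an immortalised human kidney proximal tubule epithelial line, so every library came from 1 cell line. Cells received 50 nM of siRNA by lipid transfection, either a scrambled sequence (genotype label WT, 4 libraries, replicates 1 to 4) or an siRNA against GLUT2, the glucose transporter encoded by SLC2A2 (genotype label GLUT2-KD, 3 libraries, replicates 2 to 4), and were lysed after 96 h. Both groups were grown in the same supplemented DMEM/F12 medium under 5% CO2, and no change in oxygen is part of the labels. The comparison asks which transcripts differ between cells given the GLUT2 siRNA and cells given the scrambled siRNA.

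Hypoxia-inducible factors (HIFs) are transcription factors made of an oxygen-regulated alpha subunit, such as HIF-1 alpha from HIF1A or HIF-2 alpha from EPAS1, and a stable partner, ARNT. When oxygen is present, EGLN enzymes hydroxylate prolines of the alpha subunit, and the VHL ubiquitin ligase then marks it for destruction, so HIF-1 alpha is controlled mainly at the protein level. When it accumulates it activates genes for glycolysis, blood vessel growth, collagen maturation and mitophagy, as well as EGLN1 and EGLN3, which limit the response. In the kidney, proximal tubule cells use much oxygen and are among the cells harmed first when its supply falls. Only transcripts were measured here.

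The libraries held 5654957 to 8455963 counts in the scrambled group and 5881366 to 6914302 in the siGLUT2 group. Genes with a count numbered 14844 to 15036 and 13433 to 13891, and mitochondrially encoded genes took 4.91% to 5.53% and 7.04% to 7.56% of counts. Apart from a fit without the mitochondrially encoded genes, given at the end, the part of these differences in the results below was not tested. SLC2A2 itself had 13, 13, 7 and 17 counts under the scrambled siRNA and none in 3 of 3 siGLUT2 libraries (adjusted p = 0.0085, and 0.0538 without scrambled replicate 4). Of 16 proximal tubule markers, LRP2, SLC22A6 and SLC22A8 had 0 counts in every library, and CUBN, AQP1 and SLC34A1 stayed below 1 CPM on average. PAX8, a kidney epithelial transcription factor, was at 192 ± 6.23 CPM (SD, n = 4) and 176 ± 9.69 CPM (SD, n = 3). Its groups did not overlap, but it did not pass the test (adjusted p = 0.333). The summed marker level, mostly keratins, was 1171 to 1281 CPM in scrambled and 715 to 915 CPM in siGLUT2 libraries. KRT18, KRT19 and KRT8 fell by log2 0.76, 0.97 and 0.71, and GGT1, a brush border enzyme, rose by 0.57. Markers of other cell types were low: 5 of 7 endothelial markers had 0 counts throughout (summed level at most 0.759 and 1.15 CPM), fibroblast markers summed to 8.97 to 13.2 and 15.1 to 21.4 CPM, nearly all COL1A1 (9.4 and 16.6 CPM on average), and leukocyte markers to 13.8 to 18.6 and 25.9 to 28.5 CPM, nearly all the lysosomal gene CD68 (15 and 25.9 CPM on average), with PTPRC at 0. COL1A1 and CD68 rose (adjusted p = 0.026 and 0.00853), COL1A1 not without scrambled replicate 1, 3 or 4 or siGLUT2 replicate 4 (0.052 to 0.0775), and the part of these markers in the results was not tested. PDGFRB, a pericyte and fibroblast receptor, averaged 1.7 and 1.24 CPM (adjusted p = 0.765).

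Of the 10 genes, 4 fell after siGLUT2 (NDRG1, P4HA1, HIF1A and BNIP3), 3 rose (VEGFA, EGLN1 and P4HA2) and 3 did not pass the test (EGLN3, BNIP3L and ADM). The quasi-likelihood test of edgeR was used, with p-values adjusted by Benjamini-Hochberg across 12404 genes and a threshold of 0.05. It called 28.3% of those genes, 14.4% lower and 13.9% higher. Levels are counts scaled to library size (CPM), and fold changes are siGLUT2 over scrambled on the log2 scale ± SE. Among the 10 genes, 7 had scrambled and siGLUT2 ranges that stayed apart, and these were the 7 that were called. Over all tested genes, called or not, the ranges stayed apart for 35.1%. The median fold change was -0.20 for the 10 genes and -0.0029 for all tested genes. Since the genes were chosen with results of these data known, these shares describe them only. In bulk RNA, a change in the share of cells that express a gene and a change of its RNA per cell cannot be told apart.

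**Figure D1:**
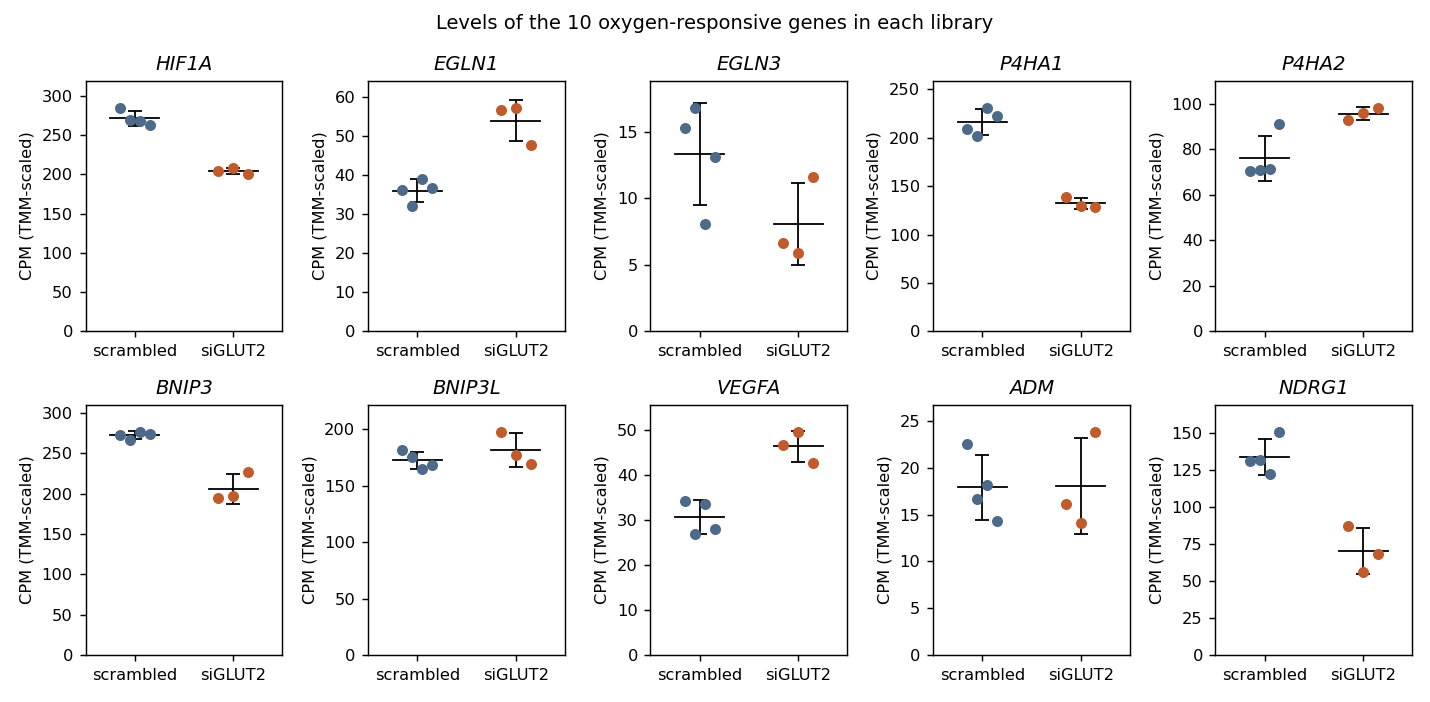
Level of each gene in CPM (vertical axis, from 0, its own scale per panel) in each scrambled (blue, 4) and siGLUT2 (orange, 3) library; each point is 1 library, and bars show the mean and SD. HIF1A, P4HA1, BNIP3 and NDRG1 lie lower in every siGLUT2 library, EGLN1, P4HA2 and VEGFA lie higher, and the groups overlap for EGLN3, BNIP3L and ADM.

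HIF1A (ENSG00000100644, GRCh38 chromosome 14, 61695513 to 61748259, plus strand) encodes the oxygen-regulated subunit. It was at 285, 270, 268 and 263 CPM in scrambled replicates 1 to 4 and at 204, 208 and 200 CPM in siGLUT2 replicates 2 to 4. Every siGLUT2 library lay below every scrambled one, and the spread within each group was small. The level fell from 272 ± 9.15 (SD, n = 4) to 204 ± 3.69 CPM (SD, n = 3), 1.33-fold lower (-0.41 ± 0.09, adjusted p = 0.000826). The antisense genes HIF1A-AS1 and HIF1A-AS3 overlap it on the other strand, with at most 10 and 31 counts in any library, against 1198 or more for HIF1A.

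EGLN1 and EGLN3 encode HIF prolyl hydroxylases, PHD2 and PHD3, and both are known HIF targets. The related gene EGLN2, not among the 10, was at 33.7 ± 4.62 CPM (SD, n = 4) in scrambled and 45.5 ± 13.2 CPM (SD, n = 3) in siGLUT2 libraries. It did not pass the test (adjusted p = 0.0998). EGLN1 (ENSG00000135766, chromosome 1, 231363751 to 231425044, minus strand), the main oxygen sensor in most cells, was at 36.2, 32.1, 39.0 and 36.7 CPM in scrambled and 56.6, 57.2 and 47.8 CPM in siGLUT2 libraries. The lowest siGLUT2 library stood above the highest scrambled one. The rise was 1.5-fold (0.58 ± 0.15, adjusted p = 0.00621). EGLN3 (ENSG00000129521, chromosome 14, 33924231 to 34462774, minus strand) was at 15.3, 16.8, 8.09 and 13.1 CPM in scrambled and 6.65, 5.91 and 11.6 CPM in siGLUT2 libraries. Its groups overlapped, because scrambled replicate 3 was low and siGLUT2 replicate 4 was high. The fold change was -0.73 ± 0.33 with an adjusted p of 0.111 (95% interval, without adjustment, 0.375 to 0.977-fold). Without siGLUT2 replicate 4 it was -1.09 with an adjusted p of 0.0228. EGLN3 rested on 39 to 140 counts per library, and its annotated span holds SPTSSA on the same strand, so reads there may have been left out or shared.

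The count ratio of EGLN1 to EGLN3 needs no scaling between libraries. It was 2.36, 1.91, 4.78 and 2.8 in scrambled and 8.42, 9.58 and 4.11 in siGLUT2 libraries, with siGLUT2 replicate 4 below scrambled replicate 3. The log2 ratio differed by 1.31 between the groups (exact two-sided permutation p = 0.0857, also 0.0857 adjusted over the 3 ratios tested), so a shift between the 2 hydroxylases was not shown beyond the spread. The smallest p that the 35 splits of 4 and 3 libraries can give is 0.0286.

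The 150 bases before the annotated start of EGLN1 (RefSeq, GRCh38.p14, chr1:231422288-231422437, minus strand) are shown because HIFs bind DNA through the hypoxia response element. Capitals mark its core, searched as ACGTG or GCGTG on both strands.
EGLN1: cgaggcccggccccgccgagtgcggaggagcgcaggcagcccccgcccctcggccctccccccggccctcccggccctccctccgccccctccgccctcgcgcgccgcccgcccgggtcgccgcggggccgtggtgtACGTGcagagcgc
The window holds 1 match, close to the start. In windows of 250 bases before to 50 after the start, 48.4% of 35116 RefSeq promoters hold at least 1 match, so a single match is common. EGLN3, whose level did not pass the test, has none in its window. A match in letters does not show binding, and its absence says nothing of elements elsewhere. The RefSeq starts of EGLN1 and EGLN3 lie inside the wider gene spans given above, which are from GENCODE. Starts at the outer ends of those spans were not searched.

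Of 16 other tested genes in the list of HIF subunits and oxygen sensing, 3 rose and 1 fell, with a median of 0.12, against 28.3% called of all tested genes. With HIF1A, EGLN1 and EGLN3 the list had 4 rises and 2 falls among 19. Without scrambled replicate 2 the rises were 2, and without siGLUT2 replicate 4 there were 2 rises and 4 falls. EPAS1, which encodes HIF-2 alpha, had the largest change of the list: it was at 102, 122, 98.4 and 92.4 CPM in scrambled and 39.2, 33.0 and 47.8 CPM in siGLUT2 libraries. The groups lay far apart, and EPAS1 fell by 1.37 ± 0.15 (adjusted p = 3.63e-07). Both tested HIF alpha genes were thus lower, while ARNT was at 20.9 ± 4.8 (SD, n = 4) and 26.2 ± 5.17 CPM (SD, n = 3) and did not pass (adjusted p = 0.298). HIF3A, the third alpha gene, had 0 counts in every library, which allows up to 0.103 CPM in scrambled and 0.156 CPM in siGLUT2 cells (3 counts over the group, counting error only).

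Besides EGLN1, the genes of that list that rose were ELOC, SIAH1 and CITED4. ELOC, the elongin C subunit of the VHL ligase, went from 133 ± 21.8 to 182 ± 10.4 CPM (0.46 ± 0.12, adjusted p = 0.00477). SIAH1, a ubiquitin ligase for EGLN enzymes, rose by 0.63 ± 0.20, and CITED4, which competes with HIF for the coactivators CBP and p300, by 0.43 ± 0.15. Their adjusted p-values were 0.0232 and 0.0287. SIAH1 lost its call without scrambled replicate 2 or siGLUT2 replicate 2 or 4 (0.0799, 0.0575 and 0.0523), and CITED4 without scrambled replicate 2, 3 or 4 or siGLUT2 replicate 4 (0.0781, 0.0657, 0.0779 and 0.0516). The ligase subunits ELOB (269 and 262 CPM) and RBX1 (145 and 123 CPM) and the coactivator EP300 (70.3 and 80 CPM) did not pass. RBX1 passed, in the same direction, without siGLUT2 replicate 4 (adjusted p = 0.0309). VHL itself was at 45 ± 7.7 (SD, n = 4) and 38.6 ± 6.46 CPM (SD, n = 3), with an adjusted p of 0.372.

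**Figure D2:**
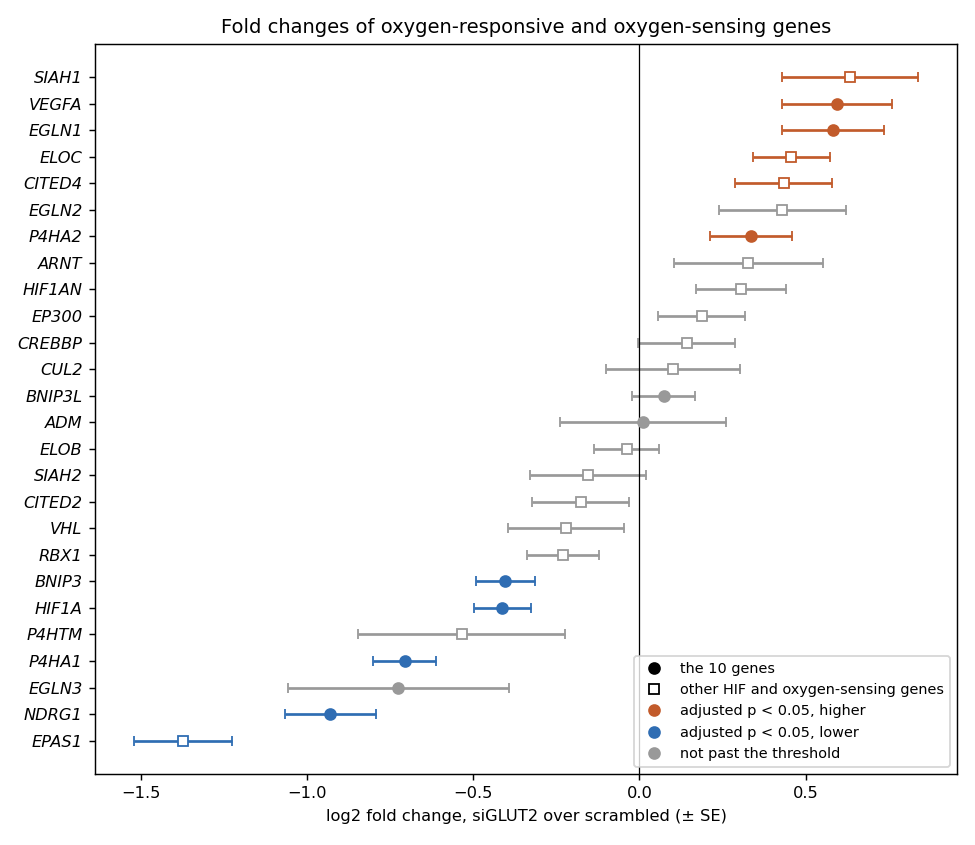
Log2 fold change ± SE (horizontal axis) of the 10 genes (filled circles) and the other tested genes of HIF assembly and oxygen sensing (open squares), coloured by the call. EPAS1 is lowest at -1.37, NDRG1 follows at -0.93, and SIAH1, VEGFA and EGLN1 are highest at 0.63, 0.60 and 0.58.

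The collagen prolyl 4-hydroxylase, which makes collagen helices stable and needs oxygen to act, is built from P4HB and an alpha subunit from P4HA1 or P4HA2. The alpha subunit genes moved in opposite directions. P4HA1 (ENSG00000122884, chromosome 10, 73007217 to 73096974, minus strand) was at 209, 202, 231 and 223 CPM in scrambled and 139, 130 and 128 CPM in siGLUT2 libraries. No siGLUT2 library came near the scrambled range, and P4HA1 was 1.63-fold lower (-0.71 ± 0.10, adjusted p = 7.02e-06). P4HA2 (ENSG00000072682, chromosome 5, 132191838 to 132295315, minus strand) was at 70.6, 71.0, 71.5 and 91.0 CPM in scrambled and 92.8, 96.1 and 98.2 CPM in siGLUT2 libraries. Scrambled replicate 4 stood apart from the other 3 scrambled libraries and just under the siGLUT2 range. The antisense gene P4HA2-AS1 had at most 4 counts in any library. The rise of P4HA2 was 1.26-fold (0.33 ± 0.12, adjusted p = 0.0471). Its call was lost in 10 of 19 alternatives, among them DESeq2 (0.0529) and leaving out scrambled replicate 1, 2 or 3 (0.127, 0.123 and 0.112) or siGLUT2 replicate 3 or 4 (0.094 and 0.0837).

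Within each library, the count ratio of P4HA1 to P4HA2 was 2.96, 2.85, 3.23 and 2.45 in scrambled and 1.5, 1.36 and 1.3 in siGLUT2 cells. These groups did not overlap. The log2 ratio changed from 1.51 ± 0.17 (SD, n = 4) to 0.47 ± 0.11 (SD, n = 3), a difference of -1.05 (exact two-sided permutation p = 0.0286, the smallest possible, and 0.0429 adjusted over the 3 ratios). The ratio was lower in 3 of 3 siGLUT2 libraries than in any scrambled one. It uses the same counts as the 2 fold changes above, of genes chosen with results known, so it is no separate support. The difference stayed between -1.12 and -0.99 when any 1 library was left out.

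The promoters of this pair, which moved apart, are shown in the same way, each as the 150 bases before the RefSeq start on GRCh38.p14 (chr10:73096867-73097016 and chr5:132227092-132227241, both minus strand), with element cores in capitals.
P4HA1: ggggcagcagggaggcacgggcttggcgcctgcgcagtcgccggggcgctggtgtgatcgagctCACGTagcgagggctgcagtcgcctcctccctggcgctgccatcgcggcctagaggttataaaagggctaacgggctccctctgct
P4HA2: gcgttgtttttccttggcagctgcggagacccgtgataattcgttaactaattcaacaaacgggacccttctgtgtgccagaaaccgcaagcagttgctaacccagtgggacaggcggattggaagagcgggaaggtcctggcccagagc
P4HA1 holds 1 core, read on the opposite strand, and P4HA2 holds none, also in the longer window searched. The RefSeq start of P4HA2 lies well inside its GENCODE span, which ends at 132295315, and a start at that end was not searched. P4HA1 is in addition the only 1 of the 10 genes whose longest annotated 3' UTR (GENCODE 29, 1005 bases) holds GACCTTA or ACCTTAA, 7-base words picked in an earlier look at these same fold changes. The match, with its flanks and the word in capitals, starts at base 205 of that UTR and reads as follows.
P4HA1 3' UTR: attgcataaaACCTTAAagttctgttgg
Among 10079 genes with at least 5 CPM and a 3' UTR, 15.6% held a word. Since the words were picked on these fold changes, nothing is read from how genes with a word changed, and the part of the word in the fall of P4HA1 was not tested.

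The wider collagen modification list had 20 tested genes, of which 4 rose and 2 fell, against 28.3% called of all tested genes. The list's median was -0.0041. Without siGLUT2 replicate 2 the rises were 7, and the falls were 1 without scrambled replicate 4 and 4 without siGLUT2 replicate 4. With P4HA1 and P4HA2 left out of the list, 3 of 18 genes rose and 1 fell in the fit of all libraries. Besides P4HA2, the rises were in P3H4 (95.6 ± 8.83 to 171 ± 12.2 CPM, adjusted p = 3.77e-06), PLOD1 (0.63 ± 0.14) and P3H3 (0.58 ± 0.15), whose products form a complex that hydroxylates collagen lysines. Both groups were separate for each of these 3 genes. The crosslinking enzyme gene LOXL2 fell by 0.31 ± 0.09 (adjusted p = 0.0119, and 0.0568 or 0.0681 without scrambled replicate 4 or siGLUT2 replicate 3). P4HB, the shared partner, was at 464 ± 16.9 (SD, n = 4) and 405 ± 32.6 CPM (SD, n = 3) with an adjusted p of 0.0757, and P4HA3 was too low to test (0.571 and 0.24 CPM).

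BNIP3 and BNIP3L (also called NIX) encode related outer mitochondrial membrane proteins that recruit autophagosomes to mitochondria. BNIP3 (ENSG00000176171, chromosome 10, 131966455 to 131982013, minus strand) was at 273, 266, 277 and 274 CPM in scrambled and 194, 197 and 227 CPM in siGLUT2 libraries. The scrambled libraries were nearly level, siGLUT2 replicate 4 was the nearest to them, and the groups did not overlap. BNIP3 was 1.32-fold lower (-0.40 ± 0.09, adjusted p = 0.00152), and processed pseudogenes may share its reads. BNIP3L (ENSG00000104765, chromosome 8, 26382898 to 26505636, plus strand) was at 182, 175, 165 and 168 CPM in scrambled and 198, 177 and 169 CPM in siGLUT2 libraries. Its groups overlapped, with a fold change of 0.07 ± 0.10 and an adjusted p of 0.619 (95% interval 0.917 to 1.21-fold). A change of BNIP3L as large as the fall of BNIP3 lay outside that interval. PNMA2 overlaps BNIP3L on the other strand with 76 to 172 counts per library, against 951 or more for BNIP3L.

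The ratio of BNIP3 to BNIP3L counts was 1.5, 1.52, 1.68 and 1.64 in scrambled and 0.979, 1.11 and 1.34 in siGLUT2 libraries. The groups were separate, and BNIP3 counts fell to about the level of BNIP3L counts in siGLUT2 replicate 2. The log2 ratio went from 0.66 ± 0.08 (SD, n = 4) to 0.18 ± 0.23 (SD, n = 3), a difference of -0.48 (exact two-sided permutation p = 0.0286, the smallest possible, and 0.0429 adjusted over the 3 ratios). It lay between -0.60 and -0.37 when any 1 library was left out. This ratio, too, rests on the counts behind the fold changes above, of genes chosen with results known, and is no separate support.

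**Figure D3:**
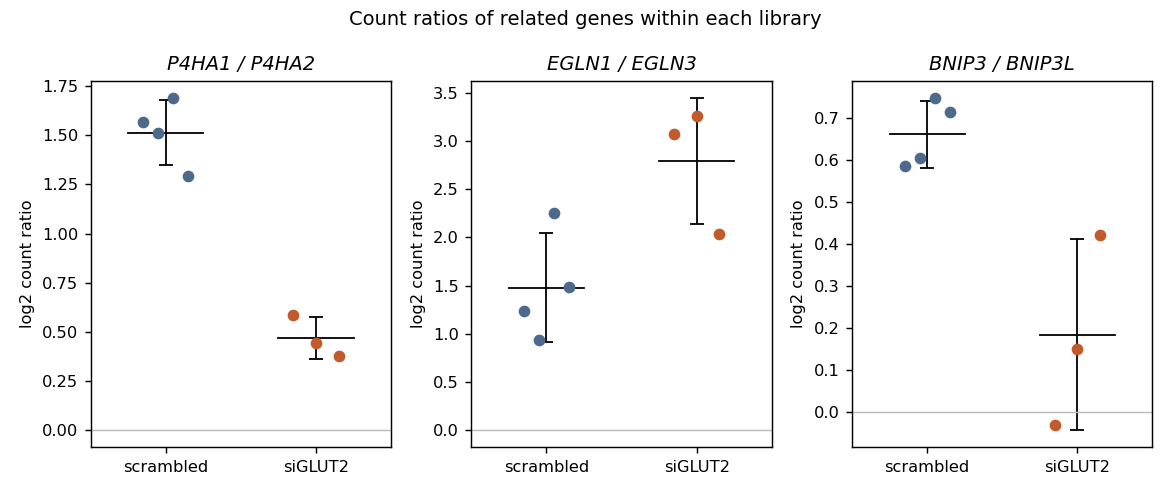
Log2 ratio of the counts of 3 pairs of related genes within each library (vertical axis, its own scale per panel; points are libraries, bars the mean and SD, the grey line a ratio of 1). The ratios of P4HA1 to P4HA2 and of BNIP3 to BNIP3L are lower in every siGLUT2 library, while those of EGLN1 to EGLN3 overlap.

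The BNIP3 promoter is shown because it has the most element cores of the 7 genes with a RefSeq window (GRCh38.p14, chr10:131981924-131982073, minus strand, cores in capitals).
BNIP3: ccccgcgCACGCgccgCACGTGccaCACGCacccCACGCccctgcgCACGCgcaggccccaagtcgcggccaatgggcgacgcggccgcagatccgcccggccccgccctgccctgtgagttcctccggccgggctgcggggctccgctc
It holds 6 matches over both strands, between 143 and 104 bases before the start, 2 of which overlap in the palindrome CACGTG. Of all 35116 windows, 0.923% hold at least 6. BNIP3 with 6 and HIF1A and P4HA1 with 1 each fell, and EGLN1 with 1 and P4HA2 with 0 rose. ADM with 1 and EGLN3 with 0 did not pass the test. HIF1A has a further RefSeq window, at a later start, that holds 0. The part of these cores in the changes was not tested. NDRG1, BNIP3L and VEGFA had no RefSeq window to search.

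Among 19 tested mitophagy genes, 5 rose and 3 fell, against 13.9% higher and 14.4% lower in all tested genes. The list's median was 0.03. With BNIP3 and BNIP3L left out of the list, 5 of 17 genes rose and 2 fell. SQSTM1, the p62 autophagy receptor, rose from 341 ± 18.2 to 522 ± 55.4 CPM (adjusted p = 1.32e-05), and MAP1LC3B, whose product coats autophagosomes, from 60.7 ± 8.3 to 100 ± 17.5 CPM. The mitophagy receptors BCL2L13 and OPTN rose by 0.59 ± 0.12 and 0.41 ± 0.11. GABARAPL1, a relative of MAP1LC3B, fell by 0.73 ± 0.13 (adjusted p = 0.000183). Receptor genes of the list thus moved both ways, and FUNDC1, a receptor used under hypoxia, was at 34.6 ± 3.49 (SD, n = 4) and 35.5 ± 3.63 CPM (SD, n = 3).

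VEGFA (ENSG00000112715, chromosome 6, 43770184 to 43786487, plus strand) encodes the main growth factor for blood vessels and is a classic HIF target. It was at 34.1, 26.9, 33.5 and 28 CPM in scrambled and 46.6, 49.6 and 42.7 CPM in siGLUT2 libraries. All siGLUT2 libraries were higher than all scrambled ones, and the level rose 1.51-fold (0.60 ± 0.17, adjusted p = 0.0091). VEGFA therefore changed opposite to HIF1A and EPAS1 at the RNA level.

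Of 7 tested genes of the VEGF family and its receptors, VEGFA among them, 4 rose and 1 fell, with a median of 0.60. Without VEGFA, 3 of 6 rose and 1 fell, with a median of 0.42. Over all tested genes the shares were 13.9% higher and 14.4% lower. VEGFC, a growth factor of lymphatic vessels, was at 18.6, 18.8, 22.3 and 25.8 CPM in scrambled and 45.4, 57.1 and 62.4 CPM in siGLUT2 libraries. It rose by 1.37 ± 0.18 (adjusted p = 5.16e-06), and VEGFB by 0.69 ± 0.16. NRP2, a coreceptor for VEGFC and for semaphorins, rose from 73.4 ± 9.93 to 179 ± 30.4 CPM (adjusted p = 1.06e-07), while NRP1, the related coreceptor for VEGFA, fell by 0.47 ± 0.15. NRP1 (adjusted p = 0.0256) no longer passed when scrambled replicate 1, 3 or 4, or siGLUT2 replicate 3, was left out, with values up to 0.0798, or with quality weights per group (0.0556). The receptor genes FLT1 and KDR had 0 counts in every library, and FLT4 was at 2.71 and 1.7 CPM (adjusted p = 0.532).

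ADM (ENSG00000148926, chromosome 11, 10304680 to 10307397, plus strand) encodes adrenomedullin, a vasodilator peptide that hypoxia induces in many cells. It was at 22.6, 16.7, 18.2 and 14.3 CPM in scrambled and 16.2, 14.1 and 23.9 CPM in siGLUT2 libraries. The groups overlapped throughout, and siGLUT2 replicate 4 was the highest library of all. The fold change was 0.0092 ± 0.25 with an adjusted p of 0.983, and the 95% interval ran from 0.702 to 1.44-fold. ADM rested on 81 to 161 counts per library, and its libraries were spread (SD 3.48 CPM in scrambled and 5.16 CPM in siGLUT2). A change as large as that of BNIP3 would lie inside the interval. The direction of ADM turned with several settings, to -0.25 without siGLUT2 replicate 4. Of the 11 genes for adrenomedullin, related peptides and their receptors, 3 were tested. None of them passed with edgeR, DESeq2 or limma-voom (0 at an unadjusted p below 0.05). With edgeR, 28.3% of all tested genes passed. RAMP2, a receptor accessory protein, was at 2.17 and 4.08 CPM and ADM5 at 2.1 and 1.55 CPM. CALCRL, the receptor itself, was at 0.152 CPM in scrambled libraries and at 0 counts in the siGLUT2 libraries.

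NDRG1 (ENSG00000104419, chromosome 8, 133237171 to 133302022, minus strand) encodes a cytoplasmic protein induced by hypoxia, iron loss and cell differentiation. It was at 131, 132, 122 and 151 CPM in scrambled and 87.1, 55.8 and 68.2 CPM in siGLUT2 libraries. The siGLUT2 libraries were spread more widely but all lay well below the scrambled range. NDRG1 was 1.91-fold lower (-0.93 ± 0.14, adjusted p = 2.02e-05), the largest change among the 7 of the 10 genes that passed the test. Of 9 tested genes in a list of the NDRG family with the kinases that phosphorylate NDRG1, 5 rose and 1, NDRG1, fell. Over all tested genes the shares were 13.9% higher and 14.4% lower, and the list's median was 0.35 (0.44 without NDRG1). The rises were in NDRG4 (0.53 ± 0.17), the SGK kinases SGK1, SGK2 and SGK3 (0.74 ± 0.20, 0.66 ± 0.21 and 0.85 ± 0.30) and GSK3B (0.35 ± 0.11). Adjusted p-values were 0.0259, 0.00834, 0.0204, 0.0378 and 0.0165 in that order. The call was lost for NDRG4 without scrambled replicate 1 or siGLUT2 replicate 2 (0.0898 and 0.0795) and for GSK3B without scrambled replicate 1 (0.0633). SGK2 no longer passed when scrambled replicate 3, scrambled replicate 4 or siGLUT2 replicate 3 was left out (up to 0.0759). The same held for SGK3 with scrambled replicate 3, scrambled replicate 4 or siGLUT2 replicate 2 (up to 0.124). NDRG2 (-0.73 ± 0.49), NDRG3 (-0.24 ± 0.18) and the kinase gene GSK3A (0.16 ± 0.28) did not pass the test (adjusted p = 0.295, 0.362 and 0.713).

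**Figure D4:**
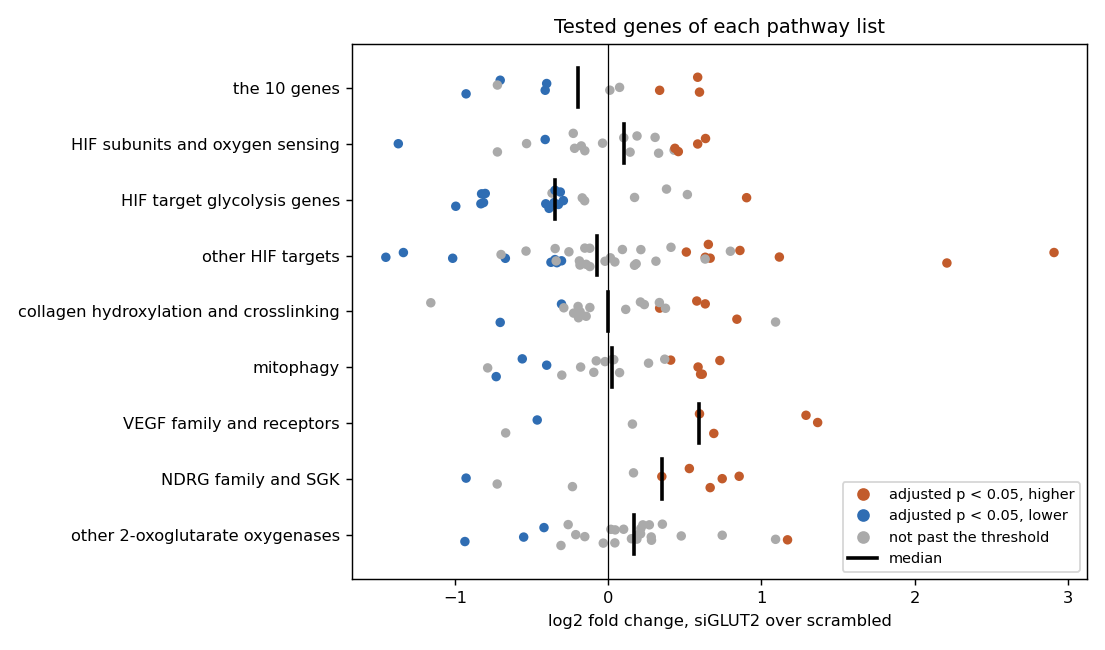
Log2 fold change (horizontal axis) of each tested gene in 9 lists of the oxygen response and its branches, coloured by the call, with the list's median as a black bar; genes can stand in more than 1 list. Glycolysis targets lie mostly below 0 (median -0.35), VEGF genes, VEGFA among them, mostly above (median 0.60, and 0.42 without VEGFA). The other HIF targets spread from -1.45 to 2.91.

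Further HIF targets did not share a direction. Among 19 tested glycolysis genes known as HIF targets 12 fell and 1 rose, against 14.4% lower and 13.9% higher in all tested genes, with a median of -0.35. LDHA, lactate dehydrogenase, went from 1004 ± 42.5 to 565 ± 21.7 CPM (adjusted p = 3.92e-08), and the enzymes ENO1, TPI1 and GAPDH, like LDHA with pseudogenes that may share reads, fell by 0.80, 0.83 and 0.41. The glucose transporter gene SLC2A3 rose by 0.90 ± 0.19, from 25 to 46.9 CPM on average. SLC2A1, also a glucose transporter gene and at a higher level, fell from 242 ± 10.2 to 197 ± 11.9 CPM (adjusted p = 0.0161). Without siGLUT2 replicate 2 the list had 2 rises. Among 38 tested HIF targets outside glycolysis 8 rose and 8 fell, with a median of -0.07. TFRC, the transferrin receptor, rose from 87.3 ± 9.91 to 190 ± 26.3 CPM (adjusted p = 2.58e-07), ANGPTL4, a lipoprotein lipase inhibitor, by 2.91 ± 0.47, and the scaffold protein gene AKAP12 by 0.65 ± 0.11. IGFBP3, an IGF-binding protein, fell by 1.34 ± 0.16 (adjusted p = 1.59e-06). The number of falls among these 38 genes was 4 without scrambled replicate 2 or 4 and 5 without siGLUT2 replicate 3.

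Of 26 other tested enzymes that, like EGLN1 and P4HA1, use oxygen and 2-oxoglutarate, 1 rose and 3 fell, with a median of 0.17, against 13.9% higher and 14.4% lower in all tested genes. The rises were 2 without scrambled replicate 4, siGLUT2 replicate 2 or siGLUT2 replicate 4. ASPH, an aspartate hydroxylase of the endoplasmic reticulum, rose from 354 ± 11.6 to 796 ± 122 CPM (adjusted p = 2.97e-09). The RNA demethylase genes FTO and ALKBH5 fell by 0.94 ± 0.20 and 0.55 ± 0.12, and the histone demethylase gene KDM5A by 0.42 ± 0.11. KDM3A, a histone demethylase induced by HIF, was at 57.5 ± 6.58 (SD, n = 4) and 59.1 ± 4.41 CPM (SD, n = 3).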

How the data were processed

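RNA of 7 HK-2 libraries was sequenced with a 3' digital mRNA method, single-end with 100 cycles from 125 ng of RNA, per the labels' protocols. The authors deposited whole-number counts per Ensembl gene (33694 rows, 16136 at 0 in every library). STAR, HTSeq, edgeR and the build hg38 stand in the submitters' processing notes without versions. Gene annotation version, strandedness of counting and molecular identifiers were not given in the sources used here, so reads of overlapping or antisense genes cannot be told apart, and floors of 3 counts cover counting error only. Intervals of fold changes come from the model and hold the spread between libraries. Total counts per library limit the precision of genes with few counts.

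Genes were found by deposited symbol, list genes through the Ensembl ID name table (32807 IDs matched), positions in GENCODE 29 (33132 IDs found), which uses the same assembly. Groups came from titles. edgeR 4.0.16 (R 4.3.3) kept genes by filterByExpr (at least 10 counts, 15 in total), scaled libraries by TMM, and fitted the 2 groups with glmQLFit and glmQLFTest, dispersions being estimated robustly and no covariate added. P-values were adjusted by Benjamini-Hochberg. SE is the fold change divided by the root of F. Ratios used counts plus 0.5. DESeq2 1.42.0, limma-voom (limma 3.58.1), other scalings and filters, and no robust estimation were alternatives. So were blocking on the replicate number, omission of single libraries or of mitochondrially encoded genes, and an adjusted p of 0.01. Quality weights by group in limma-voom were added after seeing the data. The siGLUT2 libraries differed more among themselves than the scrambled ones. Chi-square per degree of freedom of the counts of 2 libraries was 9.9 to 16.9 and 4.73 to 7.85. The main fit used the same dispersion per gene for both groups. P-values measure the spread between libraries of 1 cell line, called biological replicates in the labels.

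Members and lists were chosen with earlier results of these data known. Named are the 10 genes, SLC2A2, the called genes of the HIF and oxygen sensing list with 3 of its highest uncalled ones, and up to 5 called genes of each other list by adjusted p (or the 2 highest). One gene that the rule names is not reported here. ARNT, VHL, HIF3A, EGLN2, SLC2A1, P4HB, P4HA3, FUNDC1, FLT1, KDR, FLT4 and CALCRL were added after their values were seen. So were NDRG2, NDRG3, GSK3A, KDM3A, PAX8 and markers at or near 0. The test was tried on simulated counts first.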

Additional observations from a re-analysis of the deposited data

Results flagged for a closer look

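P4HA2 stood out for the spread of its control libraries. Scrambled replicate 4 was at 91 CPM while the other 3 scrambled libraries were at 70.6, 71.0 and 71.5 CPM, so the gap to the nearest library was 0.959 of the group's whole range, more than Dixon's 95% limit for 4 libraries. Chance sets apart about 1 in 20 groups, and 13 groups of 4 were looked at. Without scrambled replicate 4 the adjusted p of P4HA2 was 0.0203, with a fold change of 0.43.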

How the results depend on the processing

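HIF1A, NDRG1, P4HA1, EGLN1, BNIP3 and VEGFA kept direction and call in all 19 alternatives, and BNIP3L stayed uncalled. P4HA2 lost its call in 10 (adjusted p 0.0203 to 0.143 over all 19), and EGLN3 gained one without siGLUT2 replicate 4. ADM changed sign with limma-voom (-0.0218) and with quality weights (-0.022), and ran from -0.25 to 0.16 when 1 library was left out. ELOB ran from -0.13 to 0.0719 and ADM5 from -0.75 to 0.0783 in the same way. At an adjusted p of 0.01, 2264 genes were called instead of 3509. Without mitochondrially encoded genes in the fit 3507 were called, and 3 of the 10 genes rose and 4 fell, as with them. SLC2A2 had -6.65 on the log2 scale, a fitted value and no bound, -5.97 with DESeq2, -4.39 with limma-voom and -4.40 with quality weights, and ran from -6.84 to -6.36 when 1 library was left out, with the call lost at -6.36. The cause of these changes was not tested. No SLC2A2 value was had with the 5 CPM minimum.

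Libraries of equal replicate number showed no shared deviation from their group means (correlations 0.0095, 0.0152 and -0.0032 for replicates 2, 3 and 4). The labels do not say whether equal numbers share a culture, so a paired design remains possible. With the replicate block 2649 genes were called, SLC2A2 was -6.61 (adjusted p = 0.0577), the ratio differences were -1.03 for P4HA1 to P4HA2 and -0.50 for BNIP3 to BNIP3L (exact p = 0.25 each, the smallest that 3 pairs allow), and 0 of the NDRG and SGK genes were called higher (5 without it; edgeR adjusted p of those 5 between 0.0505 and 0.137). SIAH1 (0.0684), NRP1 (0.0945), COL1A1 (0.114) and P4HA2 (0.143) also lost their calls there. With 1 library left out, the ratio tests cannot go below 0.0667 or 0.1. Among 48 other named genes, 10 lost a call in some alternative, and 30 of 342 list counts moved by more than 1.5 times, 23 to fewer genes and 7 to more. Counts of 39 to 140 per library for EGLN3 and 81 to 161 for ADM limit their precision, and so does their spread between libraries.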
